A study of Homo sapiens with 12 samples.

Results

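The genes described here are the brakes on NF-κB that act by editing ubiquitin: A20 (TNFAIP3), its relative Cezanne (OTUD7B), CYLD, the A20-binding inhibitors ABIN1 (TNIP1) and ABIN2 (TNIP2), and the A20 partners TAX1BP1, ITCH and RNF11. They were chosen by name, with earlier results of these data known, as 8 of the 33093 genes with usable counts. All 8 passed the filter on low counts that left 14383 genes to test. RNA was sequenced from HEK293T cells, a human embryonic kidney line that carries the SV40 large T antigen, in 4 groups of 3 samples. WT cells and cells with serine 80 of NFKB1 (the precursor of the NF-κB subunit p50) changed to alanine by CRISPR/Cas9, called NFKB1 S80A cells, were each left untreated or given 10 ng/ml TNFα for 3 hours. All groups share the HEK293T background and its culture medium. The edited line was made from single-cell clones, the number of clones sequenced is not given in the sources used here, and an effect of the edit and a difference between clones cannot be told apart.

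When TNFα binds its receptor, ubiquitin ligases build Lys63-linked and linear ubiquitin chains on RIPK1 and other proteins, and these chains hold the kinase complexes that release NF-κB. A20 and CYLD take part in removing or editing the chains, and the ABIN proteins bind linear chains and bring A20 to them. TNFAIP3 and several of its partners are themselves NF-κB target genes, so this is a classic negative feedback loop. A count of RNA does not measure the proteins or their enzyme activity.

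The promoter stretches that hold a match to the κB consensus are shown first, because this 10-base motif is the DNA element that NF-κB dimers bind. RefSeq gives 12 promoter windows for the 8 genes (GRCh38.p14, 250 bases before to 50 bases after a transcript start), and both strands were searched. TNFAIP3, TNIP1 and CYLD held a match, so 3 of 8 genes, where 7.09% of the 27305 genes with a window did. The stretches below are printed 5′ to 3′ on the strand of the gene, with the match in capitals.
TNFAIP3, chr6:137867114-137867213, plus strand: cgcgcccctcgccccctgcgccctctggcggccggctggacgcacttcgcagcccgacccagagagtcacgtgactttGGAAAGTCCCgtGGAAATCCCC
TNIP1, chr5:151081057-151081086, minus strand: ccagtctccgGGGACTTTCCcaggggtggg
CYLD, chr16:50741852-50741951, plus strand: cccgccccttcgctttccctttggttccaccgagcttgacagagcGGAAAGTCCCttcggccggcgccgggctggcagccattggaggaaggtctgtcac

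The TNFAIP3 stretch carries a pair of matches, 67 and 55 bases before the RefSeq start of its canonical transcript. Read on the other strand, they are GGGACTTTCC and GGGGATTTCC. The TNIP1 match, GGGACTTTCC, lies 42 bases before the start on the strand of the gene, inside an exon of transcripts that begin further upstream. The CYLD match lies 189 bases before the start and reads GGGACTTTCC on the other strand. CYLD holds one more, GGGGCTTCCC, which begins at another RefSeq start of the gene. The motif thus occurs in the same 10 letters in all 3 genes. A looser form of the consensus added TNIP2 and no other member, and it was present in 20.4% of all genes with a window. A match is only a stretch of letters, and binding was not measured in these data. The windows of OTUD7B, TAX1BP1, ITCH and RNF11 held neither form.

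Library totals ran from 15624878 to 20889577 counts, with a median of 18660272. All 6 genes listed as markers of HEK293T cells exceeded 10 normalised counts in every sample, and 6 of 7 markers of other cell types were at 3 or fewer everywhere. Untreated NFKB1 S80A replicate 2 lay farthest from its group mean, at a root mean square deviation of 0.275 on the log2 scale against 0.15 to 0.24 for the other libraries. Without it the calls of the 8 genes stayed as given below, while the log2 difference of RNF11 between untreated genotypes moved from 0.25 to 0.13. The edit changes a codon, which gene counts cannot show. NFKB1 RNA itself was at 1091, 999.3 and 947.8 normalised counts in untreated WT cells and 1039, 862.6 and 993.1 in untreated NFKB1 S80A cells, so these groups overlapped (log2 difference -0.07 ± 0.10 SE, edgeR adjusted p = 0.767). With TNFα it was at 2540, 2298 and 2508 in WT cells and 3198, 2803 and 2545 in NFKB1 S80A cells, a difference of 0.22 ± 0.10 SE that did not pass the test (edgeR adjusted p = 0.198).

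The plainest result was that TNFAIP3, CYLD and TNIP1 rose with TNFα in both genotypes. Between genotypes only TNFAIP3 passed the test, in the TNFα-treated cells. With 1 call in 8 genes, nothing particular to the set is read from that count. In WT cells 3 of 8 genes rose and none fell, where 0.577% of all tested genes rose. In NFKB1 S80A cells the same 3 of 8 rose and none fell, where 0.966% of all tested genes rose. The median log2 fold change of the 8 genes was 0.26 in WT and 0.17 in NFKB1 S80A cells, while the median of all tested genes was zero to 2 decimals in both. All 3 TNFα-treated samples lay above all 3 untreated ones for 5 of 8 genes in WT cells (6.07% of all tested genes) and 4 of 8 in NFKB1 S80A cells (6.81%). Because the 8 genes were chosen with earlier results of these data known, nothing particular to the set is read from these counts. Both genotypes' responses were estimated in one edgeR quasi-likelihood fit over the 12 samples, with a threshold of 0.05 on the adjusted p.

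**Figure D1:**
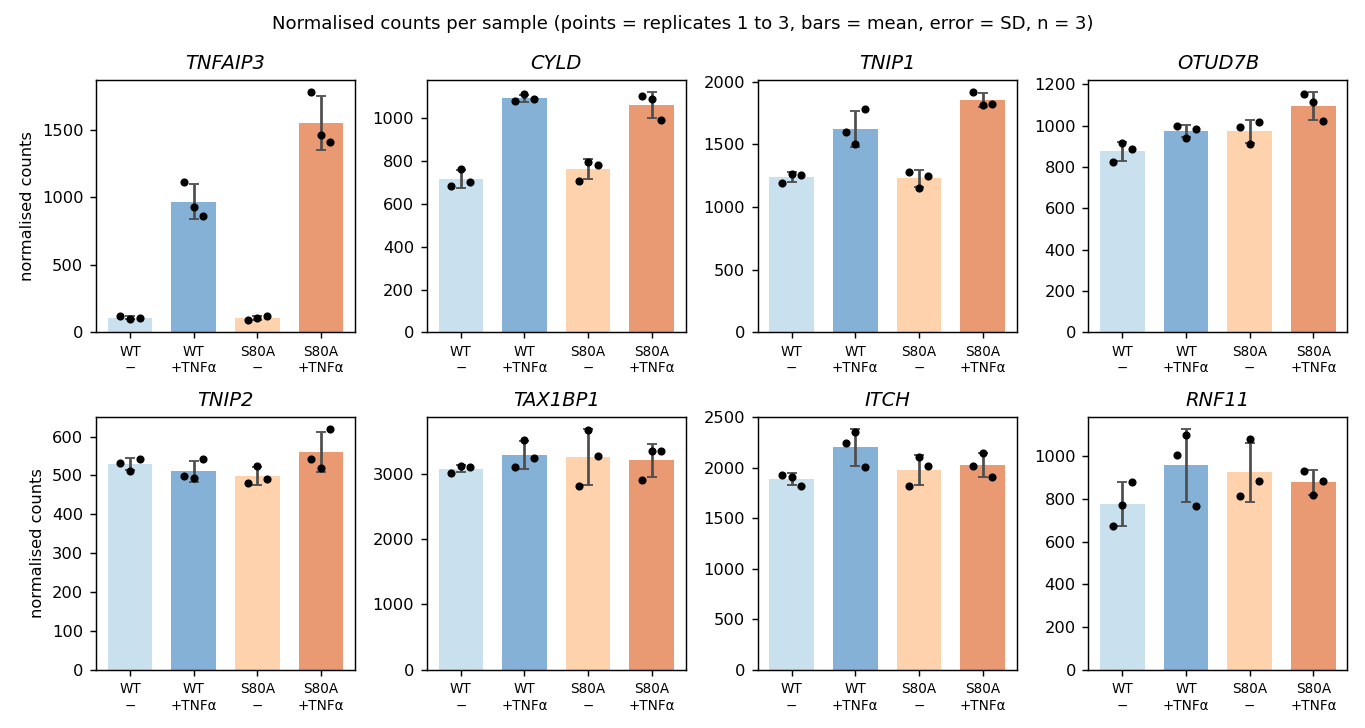
Normalised counts of each gene (vertical axis from 0) in the 4 groups, untreated (−) or treated with TNFα (+TNFα). Points are replicates 1 to 3, bars are means and error bars the SD (n = 3). TNFAIP3 lies between 93.6 and 124.2 in the untreated samples and at 862.3 or more in the treated ones. CYLD and TNIP1 rise by less, and the other 5 genes did not pass the test.

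TNFAIP3 encodes A20, which joins a deubiquitinase domain to zinc fingers with ubiquitin ligase and ubiquitin-binding functions (chr6:137867214-137883314, plus strand, 9 exons in its canonical transcript). In untreated WT cells it was at 124.2, 96.62 and 108.3 normalised counts, and in TNFα-treated WT cells at 1109, 927.4 and 862.3. In untreated NFKB1 S80A cells it was at 93.6, 103.3 and 122.4, and in treated ones at 1780, 1462 and 1408. The untreated groups overlapped, every treated sample lay far above them, and every treated NFKB1 S80A sample lay above every treated WT sample.

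The rise of TNFAIP3 with TNFα was 8.82-fold in WT cells (log2 3.14 ± 0.14 SE, edgeR adjusted p = 6.56e-09) and 14.5-fold in NFKB1 S80A cells (log2 3.86 ± 0.15 SE, edgeR adjusted p = 4.76e-10). By size it ranked 11 of 83 genes called higher in WT cells and 10 of 139 in NFKB1 S80A cells. Without TNFα the genotypes differed by -0.04 on the log2 scale, with a 95% interval of -0.38 to 0.31 (edgeR adjusted p = 0.933). With TNFα the level was 1.61-fold higher in NFKB1 S80A cells, at log2 0.68 with an interval of 0.42 to 0.94 (edgeR adjusted p = 0.00422). This call held in all 12 fits that left out 1 library, where the log2 difference ran from 0.57 to 0.79 and the adjusted p from 0.00158 to 0.0282.

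Across genotypes 1 of 8 genes, TNFAIP3, passed the test with TNFα, and it was higher in NFKB1 S80A cells. Of all tested genes 7.36% passed in either direction and 2.92% were higher. None of the 8 passed the test without TNFα, where 6.26% of all tested genes did. For TNFAIP3, TNIP1 and OTUD7B, 3 of 8 genes, all 3 treated NFKB1 S80A samples lay above all 3 treated WT samples. Of all tested genes 13.0% shared this pattern. A list of 8 genes is too short to set such counts against these shares, so nothing particular to the list is read from them.

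Whether the response to TNFα itself differed between the genotypes is a separate question, answered by the interaction of genotype and treatment. For TNFAIP3 the log2 response was 0.72 ± 0.20 SE larger in NFKB1 S80A cells, with a 95% interval of 0.29 to 1.15 and an unadjusted p of 0.00306 in the edgeR fit. After adjustment over all tested genes p was 0.911, and it ran from 0.784 to 1 over 6 other settings and from 0.213 to 1 over the fits without 1 library. TNFAIP3 was the 1 of 8 genes under an unadjusted 0.05, which 3.62% of all tested genes were. No gene of the 8, and 0% of all tested genes, passed the adjusted threshold with edgeR or with DESeq2. A larger response of TNFAIP3 in NFKB1 S80A cells is therefore not shown by this test, although its treated level was higher there.

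**Figure D2:**
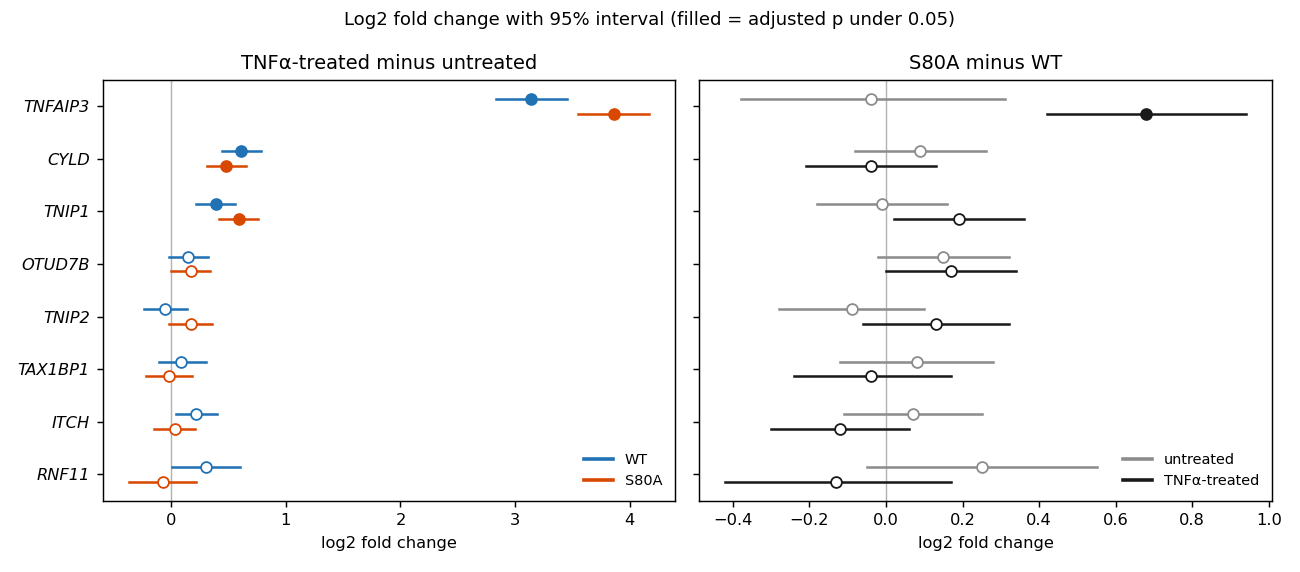
Log2 fold change of each gene with its 95% interval: on the left TNFα-treated minus untreated in WT (blue) and NFKB1 S80A cells (orange), on the right NFKB1 S80A minus WT without (grey) and with TNFα (black). Filled points passed the adjusted threshold: TNFAIP3, CYLD and TNIP1 on the left in both genotypes, and on the right TNFAIP3 with TNFα.

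CYLD is a deubiquitinase that cleaves Lys63-linked and linear chains (chr16:50742050-50801935, plus strand, 19 exons). Its normalised counts were 683.3, 762.2 and 700.3 in untreated WT cells and 1082, 1113 and 1088 in treated ones. In NFKB1 S80A cells they were 708.9, 796.5 and 779.6 without TNFα and 1106, 1090 and 993.7 with it. Treated and untreated samples did not overlap in either genotype, while the genotypes overlapped at each condition. The rise was 1.53-fold in WT cells (log2 0.61 ± 0.08 SE, edgeR adjusted p = 0.000784) and 1.4-fold in NFKB1 S80A cells (log2 0.48 ± 0.08 SE, edgeR adjusted p = 0.00501). With TNFα the genotypes differed by -0.04 on the log2 scale (interval -0.21 to 0.13, edgeR adjusted p = 0.817). In a fit to the 6 NFKB1 S80A samples alone the rise was still 0.48, with an adjusted p of 0.0847, and the adjusted p over all 7 other settings ran from 2.01e-06 to that value.

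TNIP1 encodes ABIN1, which binds linear ubiquitin and brings A20 to its substrates (chr5:151029945-151093577, minus strand, 18 exons). It was at 1192, 1267 and 1257 normalised counts in untreated WT cells and at 1596, 1501 and 1783 in treated ones. In NFKB1 S80A cells it was at 1283, 1156 and 1249 without TNFα and at 1921, 1819 and 1822 with it. All treated samples exceeded all untreated samples, and the treated NFKB1 S80A samples exceeded the treated WT samples. The rise was 1.31-fold in WT cells (log2 0.39 ± 0.08 SE, edgeR adjusted p = 0.033) and 1.51-fold in NFKB1 S80A cells (log2 0.59 ± 0.08 SE, edgeR adjusted p = 0.000771). With TNFα the genotypes differed by 0.19 on the log2 scale (interval 0.02 to 0.36), which did not pass the test (edgeR adjusted p = 0.174).

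The call of TNIP1 in WT cells depended on the scaling and on single libraries. It was lost with scaling by total counts (log2 0.38, edgeR adjusted p = 0.0746, the highest of 7 other settings, of which the lowest was 0.000969). It was also lost in 7 of 12 fits without 1 library. The adjusted p was 0.23, 0.147 and 0.172 without untreated WT replicate 1, 2 and 3, and 0.131 and 0.0814 without TNFα-treated WT replicate 1 and 3. It was 0.0647 without untreated NFKB1 S80A replicate 3 and 0.0607 without TNFα-treated NFKB1 S80A replicate 2. The log2 rise stayed between 0.32 and 0.45 in all 12. The genotype difference with TNFα, in turn, passed the test at log2 0.26 (edgeR adjusted p = 0.0483) without TNFα-treated WT replicate 3.

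The other 5 genes did not pass the test in any comparison. Among them only OTUD7B, which encodes the Lys11-directed deubiquitinase Cezanne, had all treated samples above all untreated ones in both genotypes. It was at 826.1, 913.4 and 885.9 normalised counts in untreated WT cells, 996.4, 940.2 and 984.7 in treated WT cells, 991.6, 909.4 and 1016 in untreated NFKB1 S80A cells and 1153, 1114 and 1022 in treated ones. Treated samples lay above untreated ones in both genotypes, by log2 0.15 (interval -0.02 to 0.32, edgeR adjusted p = 0.924) and 0.17 (interval 0.00 to 0.34, edgeR adjusted p = 0.513). A rise above about 1.27-fold thus lies outside the interval in both genotypes.

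ITCH encodes a HECT-type ubiquitin ligase that works with A20. It was at 1930, 1910 and 1824 normalised counts in untreated WT cells and at 2244, 2358 and 2004 in treated ones, which did not overlap (log2 0.22, interval 0.04 to 0.40, edgeR adjusted p = 0.619). In NFKB1 S80A cells it was at 1818, 2108 and 2020 without and at 2022, 2146 and 1906 with TNFα, which overlapped (log2 0.03, interval -0.15 to 0.21). The difference between these responses, -0.19 on the log2 scale, had an interval of -0.44 to 0.06.

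RNF11 encodes a small RING protein of the A20 complex. Its normalised counts were scattered within groups, at 675, 772.9 and 878.7 in untreated WT cells and 1004, 1099 and 768.3 in treated ones. In NFKB1 S80A cells they were 811.8, 1080 and 882 without TNFα and 931.3, 816.4 and 883.1 with it. The groups overlapped in both genotypes, at log2 0.30 (interval 0.01 to 0.60, edgeR adjusted p = 0.824) and -0.07 (interval -0.37 to 0.22, edgeR adjusted p = 0.903).

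TNIP2 and TAX1BP1 overlapped between treated and untreated samples in both genotypes. TNIP2 encodes ABIN2, an adaptor related to ABIN1, and its 12 values lay between 481 and 619.2 normalised counts. Its log2 response was -0.05 in WT cells (interval -0.24 to 0.14) and 0.17 in NFKB1 S80A cells (interval -0.02 to 0.36). TAX1BP1, a ubiquitin-binding adaptor of A20 that also serves in autophagy, lay between 2811 and 3671 in all samples. Its log2 response was 0.09 in WT cells (interval -0.11 to 0.30) and -0.02 in NFKB1 S80A cells (interval -0.22 to 0.18).

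Levels can be compared between genes only per length, here as reads per kilobase of the canonical transcript, scaled to library size (RPKM). Which transcripts these cells use was not measured, and the SD between samples does not cover an error in that length. In untreated WT cells TAX1BP1 led with 48.4 ± 0.89 RPKM (SD, n = 3), followed by TNIP1 with 23.3 ± 0.769. ITCH (15.1 ± 0.448), TNIP2 (14.7 ± 0.408) and RNF11 (13.6 ± 1.79) followed with samples that overlapped from each gene to the next. OTUD7B was at 5.29 ± 0.27 and CYLD at 4.52 ± 0.262, with no overlap between them. TNFAIP3 was the lowest of the 8, at 1.27 ± 0.16.

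The order changed mainly through TNFAIP3. With TNFα it took place 6 in WT cells, at 11.2 ± 1.48 RPKM (SD, n = 3), above CYLD (6.91 ± 0.105) and OTUD7B (5.89 ± 0.179). In treated NFKB1 S80A cells it took place 3, at 17.9 ± 2.33, overlapping ITCH (16.2 ± 0.961) and below TNIP1 (34.8 ± 1.09). CYLD passed OTUD7B with TNFα in WT cells without overlap, and overlapped it in treated NFKB1 S80A cells (6.71 ± 0.383 against 6.63 ± 0.407). TAX1BP1 stayed first in every group, from 48.4 to 51.7 RPKM.

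**Figure D3:**
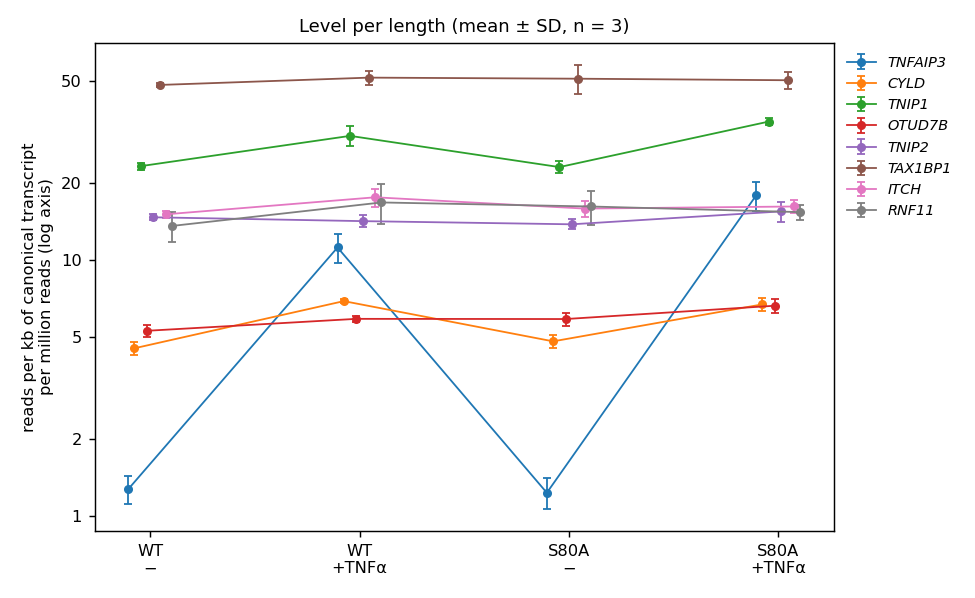
Level of each gene in RPKM (log axis, mean ± SD, n = 3) in the 4 groups, untreated (−) or with TNFα (+TNFα), with lines joining the values of a gene. TNFAIP3 climbs from the lowest place, 1.27 RPKM in untreated WT cells, to 11.2 and 17.9 with TNFα, while TAX1BP1 stays between 48.4 and 51.7.

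The 3 genes that TNFα raised in both genotypes are the same 3 whose RefSeq promoter windows hold the κB consensus shown above. The 5 that did not pass the test hold no match to it. This is a description of 8 genes, and no test was made of it. It rests on calls of TNIP1 in WT cells and CYLD in NFKB1 S80A cells that did not hold in every setting, as given above. AUUUA is an element often found in the 3′ UTR of short-lived RNAs. TNFAIP3 had 2.51 per kb of 3′ UTR, CYLD 4.05 and TNIP1 none. ITCH had 4.02, TAX1BP1 3.2, RNF11 2.82, OTUD7B 2.48 and TNIP2 none. The median over 18780 genes was 1.55. Neither binding nor RNA decay was measured, and a role of either element was not tested.

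The genes that build and read the same chains give a setting for these values. Of 13 ligases and conjugating enzymes that write the chains, none passed the test for TNFα in WT cells, where 0.577% of all tested genes rose, and 1 rose in NFKB1 S80A cells, where 0.966% did. A list of 13 genes is too short to set such counts against these shares, so nothing particular to the list is read from them. That gene was BIRC3, which encodes the ligase cIAP2, at 7.414, 2.403 and 2.604 normalised counts without and 26.22, 15.34 and 21.46 with TNFα (log2 2.30 ± 0.46 SE, edgeR adjusted p = 0.022). In WT cells BIRC3 was at 2.071, 8.946 and 9.282 without and 17.64, 22.72 and 16.64 with TNFα, which did not overlap either (log2 1.45 ± 0.43 SE, edgeR adjusted p = 0.283). Its response did not differ detectably between the genotypes (interaction 0.84, interval -0.59 to 2.27).

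Of 8 ubiquitin-chain readers 7 were tested. In WT cells 1 rose, where 0.577% of all tested genes did, and in NFKB1 S80A cells 2 rose, where 0.966% did. The list was short and chosen with earlier results of these data known, so nothing particular to it is read from these counts. OPTN rose in both genotypes. OPTN encodes optineurin, a ubiquitin-binding autophagy receptor with a domain like that of the ABIN proteins. It went from 304.4, 300.6 and 282.6 to 666.4, 613.3 and 668.5 normalised counts in WT cells (log2 1.13 ± 0.09 SE, edgeR adjusted p = 7.65e-06). In NFKB1 S80A cells it went from 323.4, 272.7 and 305.6 to 736.9, 652.4 and 694.3 (log2 1.21 ± 0.09 SE, edgeR adjusted p = 2.2e-06). Its rise was larger in log2 than those of CYLD and TNIP1 and smaller than that of TNFAIP3. SQSTM1, the autophagy receptor p62, rose in NFKB1 S80A cells by 0.57 ± 0.11 SE (edgeR adjusted p = 0.0187). In WT cells its log2 difference was 0.47 ± 0.11 SE (edgeR adjusted p = 0.0936), and the interaction of 0.10 had an interval of -0.24 to 0.43.

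None of 16 other deubiquitinases and their cofactors passed the test in any comparison. With 0.577% and 0.966% of all tested genes rising with TNFα, and 6.26% and 7.36% differing between genotypes without and with it, few or no calls would be met in a list of this length, so nothing is read from their absence. This list holds OTULIN, the linear-chain deubiquitinase, which is in the count table as FAM105B and changed by 0.08 in WT and -0.11 in NFKB1 S80A cells on the log2 scale. Their median log2 response was 0.05 in WT and 0.02 in NFKB1 S80A cells. Of 14 relatives of OTUD7B, TAX1BP1 and ITCH and adaptors of the ITCH family, 13 were tested. None of them passed the test for TNFα, which is near the share over all genes. The ligase gene SMURF2 was lower in NFKB1 S80A cells with TNFα, at 904.1, 895.5 and 881 normalised counts against 1211, 1191 and 1069 (log2 -0.37 ± 0.07 SE, edgeR adjusted p = 0.00718). Without TNFα its difference was -0.26 ± 0.07 SE (edgeR adjusted p = 0.0519).

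The genes whose pattern over the 12 samples was most like that of TNFAIP3 were found by the root mean square difference of log2 CPM, each gene first centred on its mean in untreated WT cells. They were NFKBIA (0.293), IER3 (0.318), VCAM1 (0.376), CXCL3 (0.48) and CXCL2 (0.542). Some of them depended on the prior count, 2, added before taking logs. At 0.5 in its place, SDC4 and PTX3 replaced VCAM1 and CXCL2. In the list of CYLD below, RASGRP1 (0.128) replaced FNDC3B, so that 8 of 11 genes were kept. With the prior count of 2 the log2 rise of VCAM1 in WT cells was 2.76. In the edgeR fit it was 6.56, and 7.34 in NFKB1 S80A cells, far above 3.14 and 3.86 for TNFAIP3. The fitted responses of CXCL2 were 4.41 and 4.09, with a log2 difference of 1.47 between untreated genotypes. For CYLD the nearest genes were PPP1R15B (0.106), ZNF3 (0.129) and FNDC3B (0.13), and for TNIP1 they were TFE3 (0.0642), RPS6KL1 (0.0977) and BCR (0.101). NFKBIA, the nearest to TNFAIP3, had log2 responses of 3.52 in WT and 3.66 in NFKB1 S80A cells, and the log2 difference of its treated level between genotypes was 0.39, against 0.68 for TNFAIP3.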

How the data were processed

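RNA of WT and NFKB1 S80A HEK293T cells was poly(A)-selected (TruSeq stranded mRNA) and sequenced as single-end 75 bp reads on an Illumina NextSeq instrument. The authors aligned the reads to GRCh38 with HISAT and deposited raw counts per gene symbol from HTSeq-count. Versions and counting options are not given in the sources used here. Their deposited lists of induced genes hold their own fold changes, p-values and normalised signal and were not used. Of 33121 rows, 28 were excluded because counts of up to 2 samples were not whole numbers there, taken as dates. In the other samples these rows held at most 0.233% of a library.

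Counts were fitted with edgeR 4.0.16 in R 4.3.3: filterByExpr with a minimum count of 10, TMM scaling, a quasi-likelihood fit with 4 group means, and Benjamini-Hochberg adjustment over 14383 genes. The SE is the log2 fold change divided by the square root of F. Each library's normalised counts were scaled to the mean TMM-scaled library size. RPKM used canonical transcript lengths (GENCODE release 44). The fit was tested on simulated data. Promoters came from RefSeq. Tables were made in Python 3.11.15. Alternatives were DESeq2 1.42.0, its size factors, total counts, other filters, a replicate block, the 6 samples compared alone and leaving out each library. Samples were independently generated per the study. The main p-values set differences against the spread between replicate samples, estimated over all 4 groups with information shared across genes. They do not measure a spread between clones.

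The 8 genes and all lists were chosen with earlier results of these data known. Named were the 8 genes, NFKB1, list genes that passed the test in any comparison (up to 4 per list) and the genes of nearest pattern. OTULIN was named after its values were seen. One marker of another cell type is not reported here.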

Additional observations from a re-analysis of the deposited data

How the results depend on the processing

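With 3 samples a group, the log2 differences of OTUD7B and ITCH lie near what the spread allows, and BIRC3 rests on at most 26.22 normalised counts in any sample. Among values of the 8 genes under other scalings, filters and tests, 269 kept their direction and side of the threshold. The 3 exceptions were TNIP1 in WT cells and CYLD in NFKB1 S80A cells, given above, and TNIP1 between untreated genotypes, which changed sign to 0.01 with total counts. DESeq2 called 161 genes for TNFα in WT cells in place of 99. Fits to the 6 samples compared called 71 genes for TNFα in NFKB1 S80A cells in place of 181 and 456 between untreated genotypes in place of 900.

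Leaving out 1 library at a time left 2 to 3 of the 8 genes called for TNFα in WT cells, 3 in NFKB1 S80A cells, and 1 to 2 between treated genotypes, the added gene being TNIP1. Over all genes the counts ran from 65 (without untreated WT replicate 1) to 145 (without untreated NFKB1 S80A replicate 2) for TNFα in WT cells, and from 98 (without TNFα-treated NFKB1 S80A replicate 1; 116 without untreated replicate 3) to 193 in NFKB1 S80A cells. Between untreated genotypes they ran from 356 to 1039 (553, 356 and 432 without untreated WT replicate 1, 2 and 3, and 527 without untreated NFKB1 S80A replicate 3). Between treated genotypes they ran from 434 to 1646, against 1058 with all libraries: 501 and 434 without TNFα-treated WT replicate 1 and 2, 515, 612 and 604 without TNFα-treated NFKB1 S80A replicate 1, 2 and 3, and 1646 without untreated NFKB1 S80A replicate 2. Without untreated NFKB1 S80A replicate 2, TAX1BP1 and RNF11 with TNFα in NFKB1 S80A cells (0.07 and 0.05), TNIP1 and TAX1BP1 between untreated genotypes (0.04 and -0.01) and the interaction of OTUD7B (-0.03) changed sign. The differences that changed sign without any 1 library passed no test, with these ranges: with TNFα in NFKB1 S80A cells TAX1BP1 (-0.11 to 0.07), ITCH (-0.03 to 0.07) and RNF11 (-0.16 to 0.05), between untreated genotypes TNFAIP3 (-0.16 to 0.06), TNIP1 (-0.04 to 0.04) and TAX1BP1 (-0.01 to 0.17), between treated genotypes CYLD (-0.07 to 0.00) and TAX1BP1 (-0.08 to 0.03), and the interaction of OTUD7B (-0.03 to 0.06).

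Samples of different groups share replicate numbers. Deviations of same-numbered samples correlated at 0.118 on average, over 0.1 in 9 of 18 pairs, against -0.059 and 6 of 36 pairs for different numbers. The deviations were taken from group means, which ties the 2 averages to opposite signs, so the second is no separate yardstick. All 6 pairs of replicates numbered 1 were over 0.1 (0.116 to 0.495), but 9 of the 12 pairs numbered 2 or 3 were not, and samples did not all correlate best with their own number, so the numbers were not taken to pair them. A replicate block changed no call of the 8 genes. It gave 113, 208, 1232 and 1469 genes in place of 99, 181, 900 and 1058, and 0 for the interaction.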
